A study of Saccharomyces cerevisiae with 9 samples.

Results

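The transcriptome of the Saccharomyces cerevisiae strain NBRC2018 was followed over a dose series of succinic acid, an intermediate of the citric acid cycle with a pair of carboxyl groups. The series consists of the 3 arrays labelled NBRC2018, of 9 arrays in the whole experiment, and was taken by its strain label. These 3 arrays measured cells given 0, 20 and 60 g/L of added succinic acid. The other 6 arrays measured the strains KF7 and NBRC1958 at the same 3 doses, and they are used here only to show where NBRC2018 differed. All cultures shared YPD medium (yeast extract, peptone and glucose), 35 °C, shaking at 200 rpm and 6 h of growth. The labels give strain names with no genotype, ploidy or medium pH, and there was 1 array for each strain and dose.

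Succinic acid is a weak acid. In its undissociated form a weak acid can cross the plasma membrane, and it then releases protons in the near-neutral cytosol. Yeast is known to answer such acids with exporters and cell wall proteins under the transcription factors Haa1 and War1, with chaperones under the heat shock factor Hsf1, and with protective enzymes and trehalose under Msn2 and Msn4. Growth on glucose also represses the genes of respiration, the glyoxylate cycle and gluconeogenesis.

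Expression is given as the signal of a probe set on a linear intensity scale. Differences between doses are log2 differences, taken after adding 16 to each signal, so a difference of 1 is a 2-fold change on that scale. Of 5449 genes on the array, the 4359 with the higher mean signals over all 9 arrays were used. Gene list counts and medians cover only members that passed this signal filter. A gene could thus pass through a high signal at 60 g/L or in another strain. With a single array at each dose and no replicate within the strain, differences between doses in NBRC2018 were not tested here and are described by their size. The difference between NBRC2018 and the other strains was tested with limma, whose error here is the disagreement between KF7 and NBRC1958 in their own dose courses. The 3 NBRC2018 arrays had median signals of 311, 311 and 302 over the yeast genes at 0, 20 and 60 g/L, and over all 9 arrays the medians ran from 294 to 311. Between 96.7% and 97.5% of yeast genes were above the background read from probe sets of another organism, whose 95th percentile ran from 14.7 to 15.9. None of the 1746 probe sets of that organism differed by 2-fold or more between doses in NBRC2018. At signals this low the added 16 makes a 2-fold difference nearly impossible, so this count does not bear on array quality. The summed signal of 6 genes specific to mating type a cells was between 215 and 236 on the 3 NBRC2018 arrays, that of 4 genes of alpha cells between 152 and 169, and that of 5 sporulation genes between 118 and 162. The pheromone receptors STE2 and STE3 had signals of 42.9, 42.4 and 43.9 and of 12.2, 11.4 and 10.9 at 0, 20 and 60 g/L. STE3 thus lay under the background percentile and STE2 above it, and neither differed much by dose. All 6 a cell genes were above it at each dose, and 2, 1 and 2 of the 4 alpha cell genes were. The highest alpha cell signal, between 115.5 and 131.6, exceeded the highest a cell signal, between 57.9 and 68.0. Of 7 genes of haploid cells of either type 6, 6 and 7 were above it, with summed signals between 303.5 and 331.4. These markers do not settle a mating type.

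At 20 g/L the transcriptome of NBRC2018 was close to that at 0 g/L, and most of the difference appeared between 20 and 60 g/L. In RNA of a whole culture, fewer cells expressing a gene and less RNA per cell cannot be told apart. At 20 against 0 g/L, 8 of the 4359 genes (0.184%) had a signal at least 2-fold higher, and no gene (0.0%) was lower by that factor. The median absolute log2 difference over genes was 0.0758, and the SD over genes was 0.167. The same SD was 0.296 in KF7, with 7 genes higher (0.161%) and 27 lower (0.619%) by 2-fold, and 0.236 in NBRC1958, with 5 higher (0.115%) and 16 lower (0.367%). At 60 against 0 g/L, 103 genes (2.36%) were higher and 68 (1.56%) lower by 2-fold or more in NBRC2018, and 17 and 16 of these passed 4-fold. KF7 had 97 higher (2.23%) and 43 lower (0.986%) genes at that step, and NBRC1958 had 161 (3.69%) and 127 (2.91%). At 60 against 20 g/L, 66 genes (1.51%) were higher and 59 (1.35%) lower by 2-fold or more in NBRC2018. The counts for that step were 98 (2.25%) and 24 (0.551%) in KF7, and 123 (2.82%) and 66 (1.51%) in NBRC1958. The steps from 0 g/L share the 0 g/L array, and the step from 20 to 60 g/L shares an array with each of them.

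**Figure D1:**
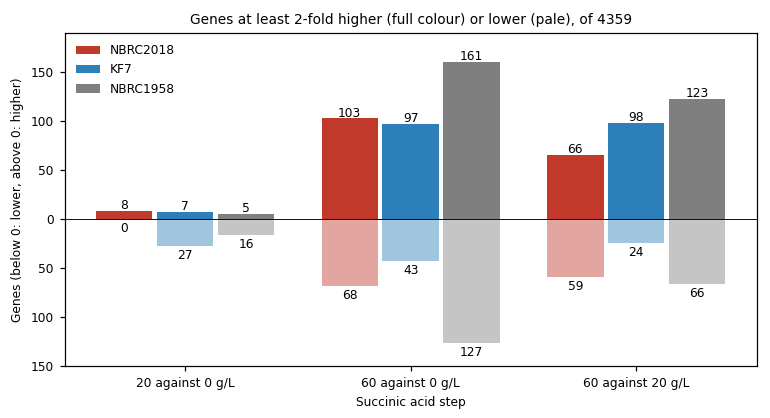
Number of genes at least 2-fold higher (above the line) and at least 2-fold lower (below the line) for 3 pairs of doses in each strain, among 4359 genes. NBRC2018 had 8 higher and 0 lower genes at 20 against 0 g/L, and 103 higher and 68 lower genes at 60 against 0 g/L.

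The share of the 60 g/L difference already present at 20 g/L varied among the higher genes and was mostly small among the lower ones. For the 103 genes at least 2-fold higher at 60 g/L, the median share of the log2 difference already present at 20 g/L was 23.2%. Of these genes 17 had at least 50% of it, 53 had under 25%, and 14 of those 53 had moved the other way. For the 68 genes at least 2-fold lower the median share was 4.27%. Of these 2 had at least 50% of it, 62 had under 25%, and 27 of those 62 had moved the other way. Across the 3 doses, 186 genes spanned at least 2-fold in NBRC2018. Of these, 88 were ordered upward with dose and 41 downward, 35 were highest at 20 g/L and 22 were lowest at 20 g/L, so 69.4% followed the order of the doses. In KF7 the share in dose order was 47.9% of 188 genes, with 84 genes lowest at 20 g/L, and in NBRC1958 it was 78.9% of 318 genes. The difference between strains in these shares was not tested.

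The 8 genes past 2-fold at 20 g/L were spread over several gene lists, with ECM13, HSP30 and USV1 in none. The glyoxylate and gluconeogenesis, exporter and sugar lists held 1 each, of 11, 16 and 6 past the filter, against 0.184% of all genes. The weak acid, citric acid cycle and peroxisome lists held 1 each, of 16, 21 and 24. AQR1 is on both the weak acid and exporter lists, and CIT2 on both the citric acid cycle and peroxisome lists. The medians of the glyoxylate and gluconeogenesis, exporter and sugar lists at 20 g/L were 0.18, 0.07 and 0.596, against 0.003 over all genes. CIT2, the peroxisomal citrate synthase, had signals of 465, 1382 and 1640.3 at 0, 20 and 60 g/L, a log2 difference of 1.54 at 20 g/L, against -0.68 in KF7 and 0.15 in NBRC1958. Most of its difference was thus present at the lower dose. ECM13, whose function is not well known, had signals of 189.7, 561 and 734 and a log2 difference of 1.49 at 20 g/L. AQR1, a plasma membrane exporter linked to resistance to short-chain acids, had signals of 401, 1087 and 1629 at the 3 doses. Its log2 difference at 20 g/L was 1.404 in NBRC2018, against 1.74 in KF7 and 2.25 in NBRC1958, so all strains had more AQR1 signal at the lower dose and NBRC2018 had the smallest difference. HSP30, a plasma membrane heat shock protein that restrains the proton pump Pma1, had signals of 388, 963 and 1774. SUC2, the invertase that splits sucrose and is repressed by glucose, had signals of 104, 249 and 249 and did not go further at 60 g/L. All these genes had higher signals at both acid doses than at 0 g/L. The transcription factor gene USV1 had signals of 165, 369 and 359, and the gluconeogenic PCK1 had 65.3, 154 and 776. YHR033W, of unknown function, completed the 8 genes past 2-fold with 41.4, 132 and 1284.

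On the lower side the 20 g/L differences stayed under 2-fold. TIR3, a cell wall mannoprotein of the TIR family, had signals of 858, 432 and 227 and the lowest log2 difference of the tested genes, -0.96. PUT1, the proline oxidase of mitochondria, had 169, 82.6 and 179, lower at 20 g/L than at either of the other doses. ARG1, an enzyme of arginine synthesis, had 1719, 934 and 933 and was lower at both acid doses. The cyclin gene PCL1 had 334, 177 and 258 and was lowest at 20 g/L. At 20 g/L, 3 genes lay above and 8 lay below both other doses by a log2 difference of at least 0.5. Those above both were FET3, the multicopper ferroxidase of iron uptake, with 357, 581 and 151, ISF1 with 1137, 1823 and 1129, and DCS1, a regulator of mRNA decapping, with 813, 1184 and 730.3. Those below both included PHO84, the high-affinity phosphate transporter, with 131, 73.3 and 407 and the mitochondrial citrate carrier gene CTP1 with 366, 232 and 352. DCS1 and CTP1 are named after their values were seen.

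**Figure D2:**
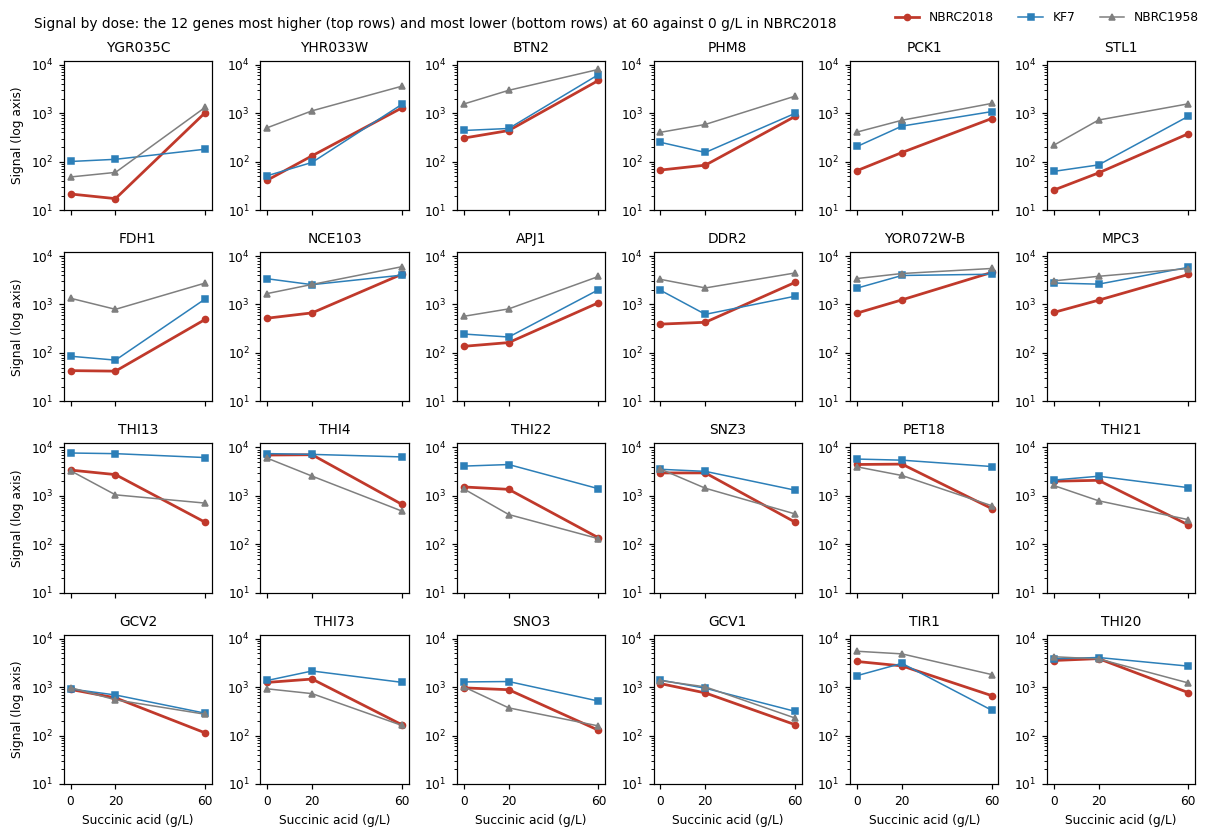
Signal of 24 genes at 0, 20 and 60 g/L of succinic acid in NBRC2018, KF7 and NBRC1958, on a log axis, 1 point per array. The genes are the 12 with the most positive and the 12 with the most negative log2 difference at 60 against 0 g/L in NBRC2018, and in the thiamine and vitamin B6 genes the NBRC2018 line is nearly flat to 20 g/L.

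At 60 g/L the protein-folding genes under Hsf1 were among those with the largest positive differences, and the list's median lay below those of the other strains. Of 29 heat shock genes on the array 28 passed the signal filter. Of these 28, 10 were at least 2-fold higher and 1 was at least 2-fold lower, against 2.36% and 1.56% of all genes. The list's median log2 difference was 0.76 in NBRC2018, against 0.96 in KF7 and 1.19 in NBRC1958, and -0.05 over all genes of NBRC2018. BTN2, which sorts misfolded proteins into deposits, had signals of 306, 438 and 4739.6 at 0, 20 and 60 g/L and a log2 difference of 3.88, against 3.78 in KF7 and 2.36 in NBRC1958. APJ1, an Hsp40 co-chaperone, had 137, 164 and 1086 and a difference of 2.85. HSP78, a mitochondrial disaggregase, had 517, 775 and 2425. All 3 were highest at 60 g/L, with a smaller excess over 0 g/L at 20 g/L. SSA4, a stress-induced Hsp70, had 373, 374 and 1277 in NBRC2018, against 264, 292 and 3516 in KF7 and 629.8, 1159 and 5152 in NBRC1958, and its log2 difference was 1.73 in NBRC2018 and 3.65 in KF7. FES1, a nucleotide exchange factor for Hsp70, had 733, 892 and 3397, and CUR1, a sorting factor related to BTN2, had 104, 122 and 324. The 1 member that was lower was HSP26, a small heat shock protein, whose signals of 5954, 5976 and 2603 were nearly equal at 0 and 20 g/L and lower at 60 g/L.

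Exporters and weak acid genes were higher in part. AQR1 had a log2 difference of 1.98 at 60 g/L in NBRC2018, against 2.42 in KF7 and 2.56 in NBRC1958. PDR12, the exporter of organic acid anions under War1, had signals of 562, 471 and 832 and a difference of 0.55, against 0.08 in KF7 and 1.002 in NBRC1958. PDR12 was thus highest at 60 g/L and lowest at 20 g/L. HAA1, the regulator of the weak acid response, had 221, 266 and 253 over the 3 doses. The plasma membrane proton pump PMA1 had 2277, 2349.7 and 2275. None of the 19 genes of proton pumps and pH sensing differed by 2-fold or more, where 2.36% of all genes were higher and 1.56% lower. Of 16 genes on the Haa1 and War1 list 4 were at least 2-fold higher and none was lower, against 2.36% and 1.56% of all genes, with median log2 differences of 0.29 in NBRC2018, 0.38 in KF7 and 0.32 in NBRC1958. Of 16 multidrug and acid exporters 2 were at least 2-fold higher, against the same 2.36%, and the median was 0.596. QDR2, a multidrug exporter, had 60.6, 72.3 and 136. YGR035C, a gene of unknown function, had the largest log2 difference in NBRC2018, 4.801, with signals of 21.5, 17.2 and 1029.7. Its signals at 0 and 20 g/L were near background, so this size depends on the offset: it was 5.52 with an offset of 1 and 3.68 with an offset of 64, where BTN2 had the larger difference, 3.697. The same gene had a difference of 0.75 in KF7 and 4.38 in NBRC1958 at the offset of 16. YHR033W, another gene of unknown function, had 41.4, 132 and 1284 and a difference of 4.501 (4.92 and 3.68 with offsets of 1 and 64). STL1, the glycerol importer that also answers osmotic stress, had 25.8, 58.6 and 377, while GPD1, the glycerol-making dehydrogenase, had 3195, 3892 and 4509.6.

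Among genes that glucose represses, those of the glyoxylate cycle and gluconeogenesis that passed the signal filter were higher at 60 g/L in NBRC2018. The medians of this list and of the citric acid cycle and respiratory chain lists were above those of the other strains, which was not tested. Of 19 glyoxylate and gluconeogenesis genes on the array only 11 passed the filter. All 11 had positive log2 differences, where 1883 of all 4359 genes did, and 5 were at least 2-fold higher, against 2.36% of all genes. The median was 0.73, against -0.17 in KF7 and 0.33 in NBRC1958. PCK1, which makes phosphoenolpyruvate for gluconeogenesis, had signals of 65.3, 154 and 776 and a difference of 3.28 (3.55 and 2.70 with offsets of 1 and 64). MLS1, malate synthase of the glyoxylate cycle, had 83.3, 100.1 and 322 and a difference of 1.77, against 0.36 in KF7 and 0.33 in NBRC1958. ICL1, isocitrate lyase of the same cycle, had 90.9, 105 and 333. In all 3 of these genes the signal was ordered with dose. The citric acid cycle list had 4 of 21 genes at least 2-fold higher (2.36% of all genes) and a median of 0.27, against -0.07 in KF7 and -0.22 in NBRC1958. The 4 were CIT2, IDP2, IDH1 and PYC1. CIT2 is peroxisomal and PYC1 makes oxaloacetate from pyruvate, so the 4 are not all enzymes of the mitochondrial cycle. IDH1, a subunit of isocitrate dehydrogenase, had 874, 1519 and 1921. Succinate dehydrogenase, which oxidizes succinate in mitochondria, showed smaller differences. SDH1 had 677, 811 and 919, SDH2 had 1052, 1144 and 942, SDH3 had 1183, 1212 and 1721 and SDH4 had 1745, 1767 and 1719.6 at the 3 doses. JEN1, a carrier that brings lactate and other carboxylates into the cell, had 171, 309 and 565 in NBRC2018 and a log2 difference of 1.64, against -1.91 in KF7 and 0.298 in NBRC1958. The respiratory chain list had 1 of 34 genes at least 2-fold higher, which is near the 2.36% of all genes. Of the 34, 28 were above 0, where 1883 of all 4359 genes were. The median was 0.18, against -0.08 in KF7 and -0.17 in NBRC1958.

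MPC3, the mitochondrial pyruvate carrier subunit used in respiration, had signals of 684, 1226 and 4162 and a log2 difference of 2.58, against 1.07 in KF7 and 0.84 in NBRC1958. NCE103, carbonic anhydrase, had 521, 671 and 4206 and a difference of 2.98, against 0.25 in KF7 and 1.83 in NBRC1958. FDH1, formate dehydrogenase, had 43.1, 42.1 and 492 and a difference of 3.104, and PHM8, a nucleotide phosphatase, had 67.0, 84.6 and 857. These sizes depend on the offset. With offsets of 1 and 64 the difference was 3.48 and 2.38 in FDH1 and 3.66 and 2.81 in PHM8. In FDH1, PHM8 and NCE103 the 20 g/L signal was close to the 0 g/L signal, and the 60 g/L signal was several-fold higher. HXT5, a hexose transporter of slow growth, had 48.4, 51.1 and 243. Of 15 genes of maltose, sucrose and galactose use on the array only 6 passed the filter. Of these 6, 3 were at least 2-fold higher (2.36% of all genes), with a median of 1.01. MAL32, a maltase gene whose probe set may read near-identical copies, had 87.8, 169 and 369, and MAL31, a maltose importer, had 639.7, 877 and 1193.

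The general stress genes under Msn2 and Msn4 were higher in part. Of 39 on the array 35 passed the signal filter. Of these 35, 9 were at least 2-fold higher and 1 lower at 60 g/L, against 2.36% and 1.56% of all genes. The list's median was 0.41, against 0.24 in KF7 and -0.03 in NBRC1958. At 20 g/L the median was 0.28 in NBRC2018, against -0.27 in KF7 and -0.11 in NBRC1958, so the sign differed at the lower dose. DDR2, a small protein of many stresses, had 393, 429 and 2855 in NBRC2018 and a difference of 2.81, against -0.41 in KF7 and 0.44 in NBRC1958. Its NBRC2018 signal was the lowest of the strains at 0 and 20 g/L and lay between the others at 60 g/L. HSP12, a membrane-stabilizing stress protein, had 1176, 2285 and 4617 and a difference of 1.96. CTT1, cytosolic catalase, had 781, 1495 and 1779 and was already higher at 20 g/L. SPI1, a cell wall protein of weak acid stress, had 795, 1272 and 2148. None of 20 trehalose and glycogen genes reached 2-fold, where 2.36% of all genes were higher and 1.56% lower at 60 g/L. The list's median was 0.32 at 60 g/L and 0.33 at 20 g/L. TSL1, a subunit of trehalose synthase, had 1680.2, 2281 and 2543, and TPS2, the trehalose phosphatase, had 1682, 2484 and 2948.

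**Figure D3:**
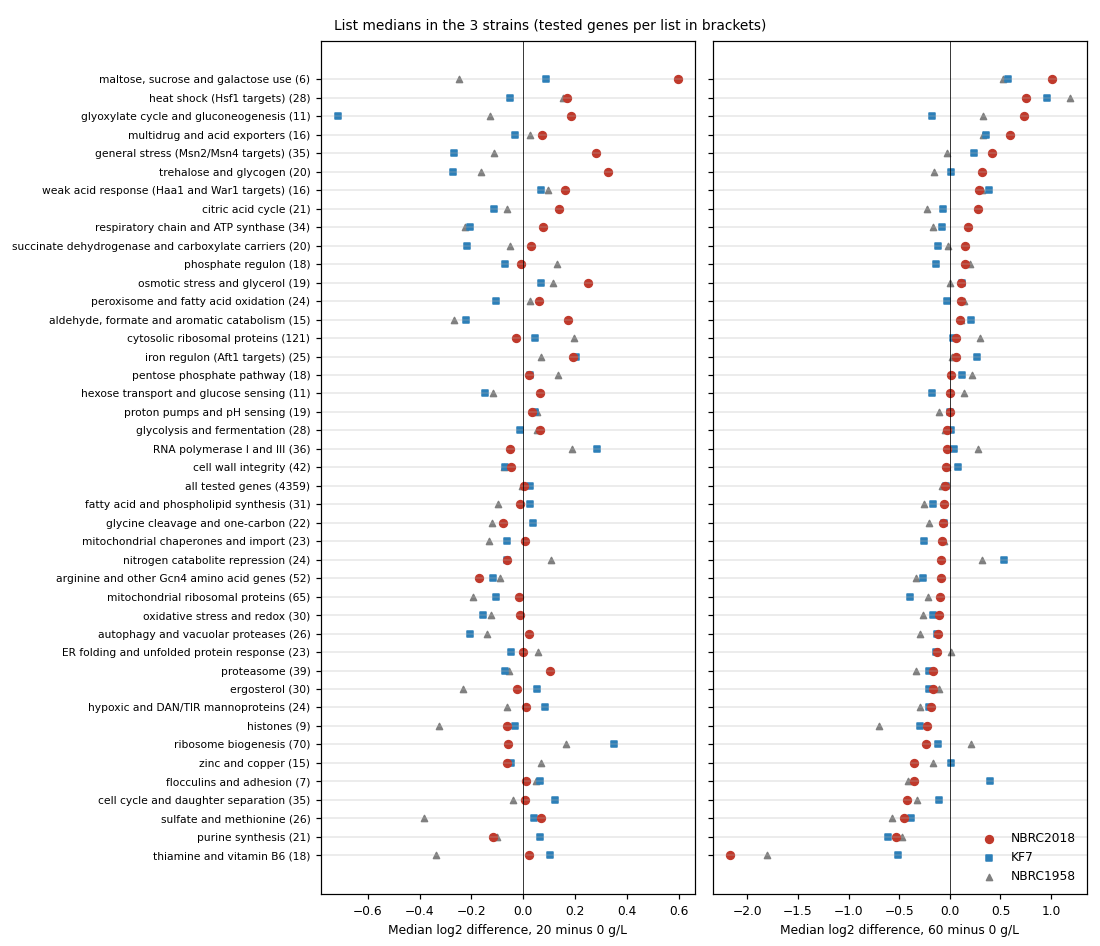
Median log2 difference at 20 against 0 g/L and at 60 against 0 g/L for gene lists in NBRC2018, KF7 and NBRC1958, 1 point per strain. The thiamine and vitamin B6 list stands far below 0 at 60 g/L in NBRC2018, with a median of -2.17, and the glyoxylate and gluconeogenesis list stands above 0, with a median of 0.73.

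The lower genes at 60 g/L were led by the synthesis of thiamine (vitamin B1), whose phosphate is a cofactor of pyruvate decarboxylase, and of vitamin B6. Of 21 thiamine and vitamin B6 genes on the array 18 passed the signal filter. All 18 had negative log2 differences, where 1883 of all 4359 genes had positive ones. Of the 18, 16 were at least 2-fold lower, against 1.56% of all genes. The median was -2.17 in NBRC2018, against -0.51 in KF7 and -1.81 in NBRC1958, and the median at 20 g/L was 0.02 in NBRC2018. THI4, which makes the thiazole part of thiamine, had signals of 6917, 7018 and 665 at 0, 20 and 60 g/L, and its difference of -3.35 compared with -0.22 in KF7 and -3.58 in NBRC1958. THI13, of the pyrimidine branch, had 3389, 2733 and 284 and a difference of -3.51, against -0.31 in KF7 and -2.19 in NBRC1958. SNZ3, of vitamin B6 synthesis, had 2956, 2962 and 286, and its partner SNO3 had 963, 882 and 129. In all 4 genes the 20 g/L array was near the 0 g/L array, and the 60 g/L array lay far below both. In NBRC1958, by contrast, THI4 had 5971, 2542 and 483, lower already at 20 g/L, and in KF7 it had 7408, 7139.6 and 6336. The probe sets of THI13, SNZ3 and SNO3 may also read near-identical copies, so these 3 values may mix family members. The kinase genes THI20, THI21 and THI22 had differences of -2.18, -2.92 and -3.34. PET18, which lies in the thiamine list, had -2.98 and THI73, a putative transporter, had -2.79. PHO3, an acid phosphatase that thiamine represses, had signals of 3441, 3592 and 946. PDC5, an isoform of pyruvate decarboxylase, had 3099, 3499 and 1191 and a difference of -1.37, against -0.54 in KF7 and -2.69 in NBRC1958.

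Genes of glycine cleavage were lower as well, and the purine and sulfur lists had negative medians. GCV2 and GCV1, subunits of the mitochondrial glycine cleavage complex that feeds one-carbon units to folate, had signals of 893, 599 and 113 and of 1178, 757 and 167, lower already at 20 g/L. The log2 difference of GCV2 at 60 g/L was -2.81, against -1.61 in KF7 and -1.77 in NBRC1958. That of GCV1 was -2.703, against -2.09 in KF7 and -2.49 in NBRC1958, so the complex was lower in all strains. SHM2, cytosolic serine hydroxymethyltransferase, had 4082, 3277 and 1279, and MTD1, a folate dehydrogenase, had 1633, 1305 and 391. Of 22 genes of glycine cleavage and one-carbon metabolism, 5 were at least 2-fold lower and 1 at least 2-fold higher, where 1.56% and 2.36% of all genes were. The median of these 22 was -0.07, near the -0.05 over all genes, so the list was not lower as a whole. The 21 purine synthesis genes had a median of -0.53, and 2 were at least 2-fold lower (1.56% of all genes). ADE1 had 1749, 1495 and 522, and ADE17 had 3975, 3582 and 2104, both enzymes of that pathway. The 26 sulfate and methionine genes had a median of -0.45, and 3 were at least 2-fold lower (1.56% of all genes). MET3, ATP sulfurylase, had 1464, 2062 and 453, and MET28, a regulator of the same genes, had 99.9, 89.9 and 294 and was higher. The purine and sulfur medians lay close to those of the other strains, which were -0.61 and -0.39 in KF7 and -0.47 and -0.57 in NBRC1958.

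Some cell wall mannoprotein genes and most cell cycle genes were also lower. TIR1, a mannoprotein of cold and low oxygen, had signals of 3368, 2732 and 666 and a difference of -2.31, against -2.31 in KF7 and -1.59 in NBRC1958. TIR2 had 386, 207 and 145. Of 24 hypoxic and DAN/TIR mannoprotein genes 5 were at least 2-fold lower and 1 higher, against 1.56% and 2.36% of all genes. That list's median was -0.19, against -0.20 in KF7 and -0.29 in NBRC1958. Of the 24, 11 were above 0, where 1883 of all 4359 genes were, so the list was not lower as a whole. Of 35 cell cycle and daughter separation genes 4 were at least 2-fold lower (1.56% of all genes) and none was higher, and the median was -0.43, against -0.11 in KF7 and -0.33 in NBRC1958. ASH1, a repressor active in daughter cells, had 1028, 909 and 326. CLB1, a mitotic cyclin, had 945, 779 and 455, and SCW11, a wall protein of daughter separation, had 424, 488 and 173. These genes were highest at 0 or 20 g/L and lowest at 60 g/L. The 70 ribosome biogenesis genes included none past 2-fold, with a median of -0.24, against -0.11 in KF7 and 0.21 in NBRC1958. Of 121 genes of cytosolic ribosomal proteins none passed 2-fold, and their median was 0.06. At this step 2.36% of all genes were higher and 1.56% lower by 2-fold or more.

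Of the genes past 2-fold in NBRC2018 at 60 g/L, more were also past 2-fold in NBRC1958, which had the longest lists, than in KF7. Of its 103 genes at least 2-fold higher at 60 g/L, 56 (54.4%) were also at least 2-fold higher in NBRC1958, which is 34.8% of the 161 there. With KF7 the overlap was 44 genes, 42.7% of the NBRC2018 list and 45.4% of the 97 of KF7. Of the 68 lower genes, 41 (60.3%) were at least 2-fold lower in NBRC1958, or 32.3% of the 127 there, and 19 (27.9%) in KF7, or 44.2% of the 43 there. In KF7, 19 of the 103 higher genes and 10 of the 68 lower genes had the opposite sign, and in NBRC1958 these were 5 and 7. Across the 4359 genes, which are not independent replicates, the log2 differences at 60 g/L correlated between NBRC2018 and KF7 with a Pearson r of 0.579 (Spearman 0.538), and between NBRC2018 and NBRC1958 with 0.678 (Spearman 0.579). At 20 g/L the same values were -0.14 (Spearman -0.177) with KF7 and 0.0572 (Spearman -0.0518) with NBRC1958, while KF7 and NBRC1958 had 0.439 (Spearman 0.453) between them. The strains' differences rest on 1 array at each dose, so an error of a 0 g/L array enters both steps of its strain.

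**Figure D4:**
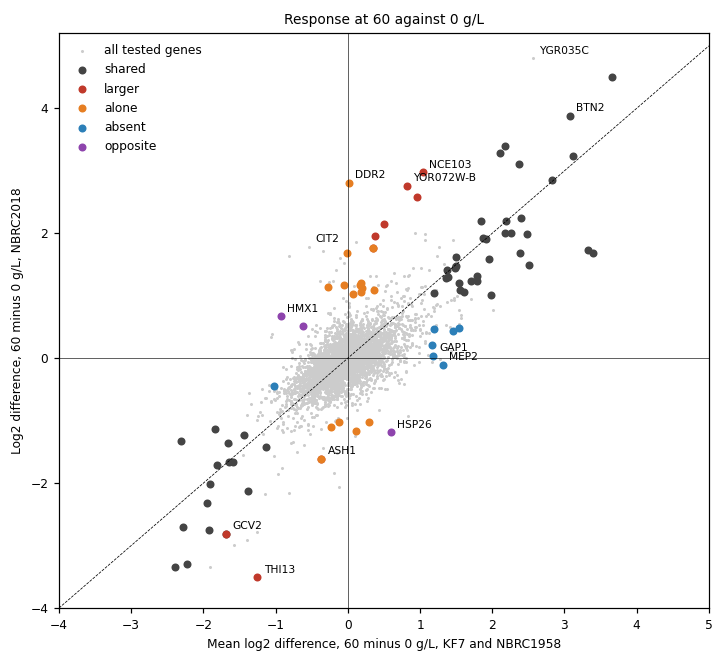
Log2 difference at 60 against 0 g/L in NBRC2018 (vertical axis) against the mean of that difference in KF7 and NBRC1958 (horizontal axis), 1 point per gene, with genes of the response classes coloured. HMX1, HSP26 and GSM1 lie on opposite sides of 0 in NBRC2018 and in the other strains, and a gene in more than 1 class is drawn in 1 colour.

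The departure of NBRC2018 from the other strains did not pass the test for any gene. Limma called 0 of 4359 genes (0.0%) at an adjusted p threshold of 0.05 at 20 against 0, at 60 against 0 and at 60 against 20 g/L. At an unadjusted p under 0.05 there were 119, 240 and 129 genes, in the order of these steps, where 5% of the genes would be 218. The median SE of the tested difference was 0.239 on the log2 scale, with 2 residual degrees of freedom. Leaving out 1 array of the other strains leaves fewer, and the dose of that array then rests on the remaining strain alone. Calls made that way are therefore not comparable with those of the full test. The result rests on single arrays: limma called 35 genes at 60 against 0 g/L and 15 at 60 against 20 g/L when the 60 g/L array of NBRC1958 was left out, 6 and 7 without that of KF7, and 8 and 2 without the 0 g/L array of NBRC1958. Leaving out the 0 g/L array of KF7 gave 2 calls at 60 against 20 g/L, and leaving out that of NBRC1958 gave 1 at 20 against 0 g/L. The following sets are therefore descriptions of size, and none of their genes is shown to be particular to NBRC2018. In all 3 strains 50 genes were past 2-fold in the same direction, 34 (0.78%) of them higher and 16 (0.367%) lower. The higher ones included the chaperones BTN2, HSP78, SSA4 and APJ1, with YHR033W, PCK1, STL1, AQR1 and GRE2, a reductase of many stresses. The lower ones included GCV1, GCV2, SNZ3, TIR1, ADE1, MET3 and SHM2.

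A larger difference was counted where NBRC2018 was past 2-fold and exceeded each other strain by a log2 difference of at least 1 in the same direction. This held for 6 genes on the higher side (0.138%) and 3 on the lower side (0.0688%). The higher ones were NCE103, YOR072W-B, MPC3, HSP30, HSP12 and MLS1. YOR072W-B had signals of 664, 1245 and 4585 in NBRC2018, 2176, 3964 and 4207 in KF7 and 3429, 4353 and 5528 in NBRC1958 at 0, 20 and 60 g/L, through a probe set that may read other sequences. It had the smallest p of the 60 against 0 g/L test, with a difference from the mean of the other strains of 1.94 (SE 0.272, limma adjusted p = 0.585). HSP30 had log2 differences of 2.15 in NBRC2018, 0.84 in KF7 and 0.15 in NBRC1958, and HSP12 of 1.96, against 0.63 in KF7 and 0.11 in NBRC1958. On the lower side were THI13, GCV2 and ASH1, and ASH1 had a difference of -1.61, against -0.34 in KF7 and -0.39 in NBRC1958. KF7 had 5 and NBRC1958 had 24 genes of this kind by the same rule, against 9 in NBRC2018.

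A difference in NBRC2018 alone was counted where it was past 2-fold and each other strain was within 0.5 of 0. There were 11 such genes on the higher side (0.252%) and 5 on the lower side (0.115%), and by the same rule 15 in KF7 and 51 in NBRC1958. The higher ones were DDR2, MLS1, SPG1, RPM2, CYC7, CTT1, FMP45, IDH1, PYC1, USV1 and YJR115W. CYC7, the cytochrome c isoform of low oxygen, had signals of 880.0, 1456 and 2012, and PYC1, which makes oxaloacetate from pyruvate, had 1217, 1798 and 2604. SPG1, a gene of stationary phase, had 68.4, 84.6 and 256, and FMP45, a membrane protein of mitochondria and cell cortex, had 51.4, 94.2 and 133. In CTT1 the signals were 781, 1495 and 1779 in NBRC2018, 2966, 2359 and 2743 in KF7 and 4274, 3255 and 4252 in NBRC1958. CTT1 was thus lowest in NBRC2018 at every dose. On the lower side were ASH1, FET3, OYE2, CLB1 and SRP40. OYE2, an NADPH oxidoreductase, had 3363, 3402 and 1566, and SRP40, a nucleolar chaperone, had 417, 382 and 197. FET3 had log2 differences at 60 g/L of -1.16 in NBRC2018, against -0.097 in KF7 and 0.32 in NBRC1958.

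A difference was counted as absent where both other strains were past 2-fold in one direction and NBRC2018 was within 0.5 of 0. There were 6 genes of this kind on the higher side (0.138%) and 1 on the lower side (0.0229%), against 23 in KF7 and 4 in NBRC1958 by the same rule. MEP2, an ammonium importer of nitrogen shortage, had signals of 98.6, 94.3 and 90.5 in NBRC2018, 442, 523 and 1238 in KF7 and 152, 196 and 367 in NBRC1958. GAP1, the general amino acid importer, had 94.4, 80.5 and 97.0 in NBRC2018, 520.2, 406 and 1173 in KF7 and 120.2, 139 and 298 in NBRC1958. MEP2 and GAP1 lay under the lowest mean signal kept by the filter (118) on every NBRC2018 array, and they passed the filter through the strains where they were higher. Both belong to the genes that good nitrogen sources repress, of which 1 of 24 was at least 2-fold higher in NBRC2018, where 2.36% of all genes were, against 9 in KF7 (2.23% of all genes) and 5 in NBRC1958 (3.69%). The difference between the strains in these counts was not tested. That list's median was -0.09 in NBRC2018, against 0.53 in KF7 and 0.31 in NBRC1958. The single higher member was CAR1, arginase, with 1307, 1331 and 4034. The other absent genes on the higher side were AAT1, mitochondrial aspartate aminotransferase, with 300.0, 294 and 352, BUB3 of the spindle checkpoint with 318, 291 and 436, HST3, a histone deacetylase, with 204, 219 and 287, and ASI3, of the inner nuclear membrane, with 406, 433 and 575. RMD5, a subunit of the ubiquitin ligase that degrades gluconeogenic enzymes, was the absent gene on the lower side, with 281, 308 and 201. By the rule, the NBRC2018 signals of these genes at 60 and 0 g/L differed by less than 0.5 on the log2 scale.

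An opposite difference was counted where NBRC2018 moved by at least 0.5 one way and both other strains by at least 0.5 the other way, which held for 2 genes on the higher side (0.0459%) and 1 on the lower side (0.0229%), 3 in all, against 11 in KF7 and 1 in NBRC1958. HMX1, heme oxygenase, had signals of 208, 224 and 340.3 in NBRC2018, 1408, 753 and 787 in KF7 and 860.4, 493 and 414 in NBRC1958. Its difference from the mean of the other strains was 1.598 (SE 0.229, limma adjusted p = 0.585). GSM1, a putative transcription factor of energy metabolism, had 129.6, 150.5 and 191 in NBRC2018, 247, 114 and 144 in KF7 and 239.6, 186 and 162 in NBRC1958. HSP26 had 5954, 5976 and 2603 in NBRC2018, 2517, 1480.1 and 3916 in KF7 and 1576, 669.7 and 2342 in NBRC1958. HSP26 was highest in NBRC2018 at 0 and 20 g/L, and at 60 g/L it lay between KF7 and NBRC1958. For HSP26 the step from 20 to 60 g/L gave the smallest adjusted p of all the tests, with a difference of -2.78 (SE 0.266, limma adjusted p = 0.191), which does not pass the threshold. Leaving out 1 of the 0 or 60 g/L arrays of the other strains gave limma adjusted p-values from 0.0118 to 0.0231 for it, with differences from -2.86 to -2.702, whereas leaving out a 20 g/L array gave 0.367 (KF7) and 0.822 (NBRC1958). For HMX1 at 60 against 0 g/L the difference was 1.72 without the 60 g/L array of KF7 and 1.47 without that of NBRC1958. In each of these fits the 60 g/L dose of the other strains rests on 1 array. In the test at 20 against 0 g/L the smallest adjusted p was 0.9998, for USV1.

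The strains differed in level already at 0 g/L. All 6 of the larger genes and all 11 of the NBRC2018-alone genes on the higher side had their lowest 0 g/L signal of the 3 strains in NBRC2018, as 28.5% of all tested genes did. The same held for 20 of the 34 shared genes and 2 of the 6 absent genes on the higher side. At 60 g/L, 2 of the 6 larger and 7 of the 11 NBRC2018-alone genes were lowest there, where 28.3% of all tested genes were. The 2 of 6 is near that share. In DDR2 the signals were 393, 429 and 2855 in NBRC2018, 1964, 626 and 1479.6 in KF7 and 3298, 2192 and 4467 in NBRC1958. DDR2 was lowest in NBRC2018 at 0 and 20 g/L and lay between the other strains at 60 g/L. Gene lists differed in level at 0 g/L in both directions. The 11 glyoxylate and gluconeogenesis genes were all lowest in NBRC2018 at 0 g/L and 5 were at 60 g/L, and the median log2 level of NBRC2018 minus the mean of the other strains was -1.29, -0.54 and -0.35 at 0, 20 and 60 g/L. Of 35 general stress genes 31 were lowest in NBRC2018 at 0 g/L, 19 at 20 g/L and 31 at 60 g/L, with median level differences of -0.81, -0.22 and -0.55. Of all 4359 tested genes 982 were lowest there at 20 g/L. Of 20 trehalose and glycogen genes 19 were lowest at 0 g/L. Of 34 respiratory chain genes 30 were lowest in NBRC2018 at 0 g/L and 14 at 60 g/L, against 28.5% and 28.3% of all tested genes. The nitrogen catabolite list had level differences of -0.43, -0.33 and -0.81, and the thiamine list of -0.04, 0.22 and -1.16, so both lists were farthest from the other strains at 60 g/L. On the other side, ribosome biogenesis had level differences of 0.41, 0.105 and 0.13, RNA polymerase I and III of 0.400, 0.13 and 0.15, and cytosolic ribosomal proteins of 0.298, 0.14 and 0.18 at 0, 20 and 60 g/L. Over all tested genes the level difference was between 0.05 and 0.06 at each dose. Strain level at 0 g/L and dose response share the same 0 g/L array, and their parts in these values cannot be told apart.

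**Figure D5:**
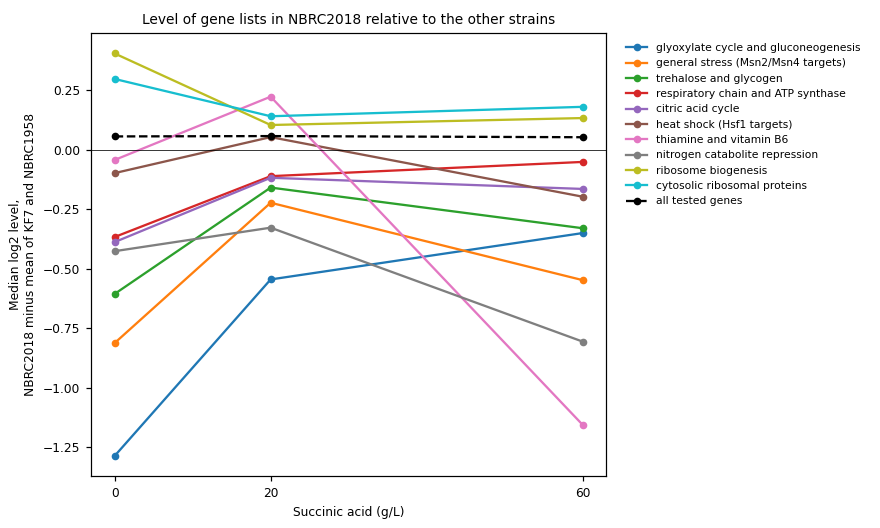
Median log2 level of NBRC2018 minus the mean of KF7 and NBRC1958 for gene lists at 0, 20 and 60 g/L, 1 line per list. The glyoxylate and gluconeogenesis list runs through -1.29, -0.54 and -0.35, and the thiamine and vitamin B6 list through -0.04, 0.22 and -1.16.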

How the data were processed

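Total RNA of 9 samples was labelled as biotin cRNA and hybridized to single-colour arrays, per the labels' protocols. Each array has 1 deposited value per probe set, a linear intensity that the authors had normalized and summarized by a method not given in the sources used here. They ran from 1.78 to 9468. An annotation of 2016 named 1 yeast gene for 5498 of 10928 probe sets, several for 1 and none for 3470. For 47 genes with several probe sets the one with the highest mean was taken, and in 14 of these the probe sets differed in sign at 60 against 0 g/L in NBRC2018. Genes in the lowest 20% of mean log2(value + 16) were left out (1090 genes, under a signal of 118), which left 4359, of which 70 have probe sets marked as shared. Groups came from the sample titles.

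Differences were tested by lmFit and eBayes of limma (version 3.58.1, R version 4.3.3), with terms for strain and for dose, and dose terms of NBRC2018 alone. The contrast was the NBRC2018 difference minus the mean difference of KF7 and NBRC1958, adjusted by the Benjamini-Hochberg method over all tested genes at 0.05. The lone NBRC2018 array of a dose is assumed to vary like the others. Nothing in the labels says that arrays came from separate cultures, so spread between them may be technical, and the number of arrays limits the precision. The fit was tested on simulated data.

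The strain, the 45 gene lists and the response classes were chosen with earlier results of these data known. Genes to name were drawn from the 12 largest and smallest differences at 60 against 0 g/L and the 6 at the other steps. Also used were the 10 smallest p-values of each test and a set of acid stress genes. Up to 8 genes of each class and up to 4 of each list were added. The text does not name all of them, and IRC7, PBI1, MRK1 and EFM6 are among those left out. Alternatives changed the offset, filter, scaling, probe set rule, fold threshold and model, and left out arrays. Promoter sequences were not analysed here.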

Additional observations from a re-analysis of the deposited data

Results flagged for a closer look

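At 60 against 0 g/L, 3 genes differed in direction between NBRC2018 and both other strains by at least 0.5 on the log2 scale. With 1 array per strain and dose, only the limma test of the difference bears on them, and no gene passed it at an adjusted p of 0.05. HMX1, which degrades heme, had a log2 difference of 0.67 in NBRC2018, against -0.83 in KF7 and -1.03 in NBRC1958, and a limma adjusted p of 0.585. GSM1 had 0.51 in NBRC2018, against -0.72 in KF7 and -0.53 in NBRC1958, with a limma adjusted p of 0.778. HSP26 had -1.19 in NBRC2018, against 0.63 in KF7 and 0.57 in NBRC1958, with a limma adjusted p of 0.585. The 0 g/L signal of HMX1 was 208 in NBRC2018, 1408 in KF7 and 860.4 in NBRC1958, and that of GSM1 was 129.6, 247 and 239.6 in the same order. HSP26 went the other way, with 5954 in NBRC2018, 2517 in KF7 and 1576 in NBRC1958. The part of the 0 g/L level in these differences was not tested.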

How the results depend on the processing

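No result reversed its direction under the alternatives run. The limma test called 0 genes at each step with quantile normalization, median centring, offsets of 1 and 64, other filters, the mean of probe sets, an intensity trend and a robust fit, and 0 with a straight line on dose at 60 against 0 g/L. With a common baseline for KF7 and NBRC1958 in place of separate ones, and NBRC2018 keeping its own, it called 0, 0 and 0 genes. Leaving out 1 array of the other strains moved the calls between 0 and 1 at 20 against 0 g/L, between 0 and 35 at 60 against 0 g/L and between 0 and 15 at 60 against 20 g/L. At 60 against 0 g/L the calls were 35 after the 60 g/L array of NBRC1958 was left out, 8 after its 0 g/L array was, and 6 after the 60 g/L array of KF7 was, so the test rests on how far KF7 and NBRC1958 disagree. At 60 against 20 g/L leaving out the 60 g/L array of NBRC1958 gave 15, that of KF7 gave 7, and the 0 g/L array of either strain gave 2. For 20 against 0 g/L the single call came from leaving out the 0 g/L array of NBRC1958. For the named genes, 17 values passed the threshold with 1 array left out, among them HSP26, HMX1, DDR2 and YOR072W-B. Fits with 1 array left out have fewer residual degrees of freedom than the full test, so their calls are not comparable with it. Leaving out a whole strain leaves no residual degrees of freedom, so that test was not run. Nor was the test without the NBRC2018 array at 0 g/L, nor the promoter comparison.

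The counts of genes past a fold depended on its threshold by construction. At a log2 threshold of 0.58 NBRC2018 had 38 higher and 15 lower genes at 20 against 0 g/L, 245 and 275 at 60 against 0 g/L, and 185 and 261 at 60 against 20 g/L. At a threshold of 2 these were 0 higher genes at 20 against 0 g/L, 17 higher and 16 lower at 60 against 0 g/L, and 13 and 15 at 60 against 20 g/L. With the lowest 50% of genes left out, 67 genes were higher at 60 against 0 g/L and 37 at 60 against 20 g/L, from fewer genes tested. At 20 against 0 g/L an offset of 64 gave 4 higher genes and an offset of 1 gave 1 lower gene. The small classes moved most. Genes absent in NBRC2018 on the higher side numbered 3 with quantile normalization, 10 without a filter, 2 with the lowest 50% left out, 10 with an offset of 1 and 10 on the step from 20 to 60 g/L. Absent on the lower side were 0 with median centring, with the lowest 50% left out and with an offset of 64, and 2 without a filter and with an offset of 1. In NBRC2018 alone, 19 genes were higher without a filter and 2 on the step from 20 to 60 g/L, and 3 were lower with median centring and 2 with an offset of 64. Opposite on the higher side was 1 gene with median centring, with the lowest 50% left out and with an offset of 64, and 0 on the step from 20 to 60 g/L. On that step, which uses no 0 g/L array and was chosen after seeing the data, shared genes on the lower side were 8 and larger ones 10. The cause of these shifts was not tested.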

Other observations

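Values of genes outside the groups above follow. In amino acid metabolism BAT2, a branched-chain aminotransferase of the cytosol, had signals of 1288, 1196 and 534 at 0, 20 and 60 g/L and a log2 difference of -1.25, against 0.76 in KF7 and -0.56 in NBRC1958. LEU1, of leucine synthesis, had 729.7, 581 and 1356 and a difference of 0.88, against -0.27 in KF7 and 0.31 in NBRC1958. Of 52 genes of their list 1 was at least 2-fold lower, where 1.56% of all genes were. FLO1, a flocculin of cell-cell adhesion, had 114, 159 and 29.6 and a difference of -1.51, against 0.69 in KF7 and -0.99 in NBRC1958, and FLO11, the flocculin of filamentous growth, had 83.5, 84.3 and 123 and a difference of 0.49, against 0.45 in KF7 and -1.22 in NBRC1958. Flocculins share repeats, so their signals may mix family members.

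ADR1, the activator of peroxisomal and ethanol-use genes, had signals of 67.6, 124 and 192 and a log2 difference of 1.32, against 0.02 in KF7 and 0.77 in NBRC1958. FAA1, a long-chain acyl-CoA synthetase, had 335, 361 and 665 and a difference of 0.96, against -0.44 in KF7 and 0.299 in NBRC1958. None of the 31 fatty acid and phospholipid genes passed 2-fold, where 2.36% of all genes were higher and 1.56% lower. TKL2, the minor transketolase, had 175, 233 and 433, and SOL4, a phosphogluconolactonase, had 325, 519 and 916, with the highest signal at 60 g/L in both. They were the 2 of 18 pentose phosphate genes past 2-fold on the higher side, where 2.36% of all genes were. In the iron regulon 2 of 25 genes were at least 2-fold lower and none was higher, against 1.56% and 2.36% of all genes, and FIT1, a cell wall mannoprotein that holds iron carriers, had 45.1, 53.9 and 102. In the phosphate regulon 3 of 18 genes were at least 2-fold higher and 1 lower, against the same 2.36% and 1.56%.

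Of 161 probe sets without a gene name and above the level filter, 1 was at least 2-fold higher at 20 against 0 g/L in NBRC2018, against 0.184% of all genes. At 60 against 0 g/L 5 were higher and 1 lower, against 2.36% and 1.56% of all genes.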
